A study of Mus musculus with 40 samples.

Results

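Non-canonical imprinted genes are genes that the mouse embryo expresses from the paternal allele because the oocyte marked the maternal allele with trimethylation of histone H3 lysine 27 (H3K27me3), and not with DNA methylation. The 5 genes described here were Gab1, Sfmbt2, Slc38a4, Smoc1 and Phf17. In the RNA table of 38540 loci, a locus was taken as a gene's own when it overlapped the gene on the same strand. This rule found 4 of the 5 genes, with 5 loci among them, out of 14062 genes and 15023 loci named in that way. Sfmbt2 had no locus by the rule. A locus within its span was found by position after the table had been seen, and is described below without being counted among the genes.

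In canonical imprinting, DNA methylation of the egg or sperm survives fertilization and silences an allele for life. In non-canonical imprinting, Polycomb repressive complex activity in the growing oocyte leaves broad H3K27me3 domains, which keep the maternal allele silent in the early embryo, and the imprint then persists mainly in the extraembryonic tissues that form the placenta. G9A and GLP are partner enzymes, encoded by Ehmt2 and Ehmt1, that write mono- and dimethylation of histone H3 lysine 9 (H3K9me2), a mark of repressed chromatin. An oocyte has not received a sperm genome, so RNA from these loci in an oocyte comes from alleles of the kind that an embryo inherits from its mother. Neither H3K27me3 nor allele-specific expression was analysed here.

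The samples were mouse oocytes at the germinal vesicle stage, the fully grown stage before meiosis resumes, collected at 22 to 25 days of age. The RNA libraries formed 4 groups: 3 G9a conditional knockout (G9a cKO) libraries, their 3 controls of the series labelled GKAO, 2 G9a-Glp conditional double knockout (cDKO) libraries, and their 3 controls of the series labelled GKAQ. H3K9me2 was profiled by chromatin immunoprecipitation from native chromatin of 100 to 200 oocytes in 2 control, 2 G9a cKO and 2 cDKO libraries. The Cre driver and the floxed alleles were not given in the sources used here. The labels do not say whether libraries of a group came from separate animals, so p-values rest only on the spread between these libraries. For RNA the fit took that spread mainly from loci of similar level and gave a locus's own spread little weight.

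The totals to which libraries were scaled, recovered from the deposited values, were 1458868 to 2399680 reads for RNA. For H3K9me2 they were 1109191 to 1881848 reads in mutants against 7048784 and 19128881 in the controls. Ehmt2 had 9 to 13 reads in GKAO controls and 2 to 11 in G9a cKO. The library labelled G9a cKO replicate 2 had the 11, within the range of the controls. In cDKO both libraries had 5 Ehmt2 reads against 8 to 30 in GKAQ controls, and Ehmt1 had 31 to 36 reads against 144 to 173. Oocyte markers, 14 of 15 in the table, summed to between 17815 and 21952 RPM (reads scaled to the library's total) in every library. Of these 14, 3 were called higher and 1 lower in G9a cKO, where 1.05% and 0.737% of all loci were. In cDKO 6 were called higher and 3 lower, against 4.32% and 2.02%. Between the control series 2 were higher and 4 lower in GKAQ, where 3.87% of loci were called in either direction. Zp2 had means of 2893 RPM in GKAO controls, 3204 in G9a cKO, 1411 in GKAQ controls and 1764 in cDKO. Granulosa markers, 12 of 12 in the table, summed to 74.3 to 83.0 RPM in G9a cKO and 79.5 to 86.7 in its controls, and to 78.3 to 92.2 in cDKO and 77.9 to 83.3 in its controls. Of the 12, 0 were called in G9a cKO and 2 were called higher in cDKO, where 4.32% of all loci were called higher. Cyp19a1 was lower in both mutants without passing the test. It had means of 41.3 RPM in GKAO controls and 26.3 in G9a cKO (limma adjusted p = 0.105), and 47.3 in GKAQ controls and 29.5 in cDKO (adjusted p = 0.0546). Gata4 was higher in both mutants, also without passing the test. Its means were 16.0 RPM in GKAO controls and 27.1 in G9a cKO (limma adjusted p = 0.140), and 15.6 in GKAQ controls and 23.7 in cDKO (adjusted p = 0.330). Fshr, the follicle-stimulating hormone receptor gene, had means of 1.86 RPM in GKAQ controls and 7.22 in cDKO (log2 2.15, SE 0.68, limma adjusted p = 0.0300), and 1.66 RPM in GKAO controls and 5.18 in G9a cKO (adjusted p = 0.0971). Inha, an inhibin subunit gene, had 2.14 and 8.46 RPM (log2 2.26, SE 0.59, adjusted p = 0.00472), and 6.42 and 3.64 RPM (adjusted p = 0.271). The Fshr call was lost without either cDKO library or GKAQ control replicate 1, and the Inha call without cDKO replicate 2 or GKAQ control replicate 3. Stroma and theca markers, 5 of 6 in the table, summed to 97.5 to 116 RPM in G9a cKO and 94.9 to 122 in its controls, and to 76.9 to 90.7 in cDKO and 75.4 to 110 in its controls. Nearly all of these sums was Pecam1, with means of 105 RPM in G9a cKO, 110 in GKAO controls, 83.2 in cDKO and 92.3 in GKAQ controls. Col1a1, Col3a1, Dcn and Cyp17a1 had group means of 0 to 2.11 RPM. Of the 5 markers, 1 was at 0 in every library, as were both blood markers in the table out of 4 listed. The part of other cell types in the results was not tested. In bulk RNA, fewer cells expressing a gene and less RNA per cell cannot be told apart.

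The promoters of the genes differ in their CG content, the sequence that DNA methylation acts on, and they are shown because non-canonical imprints do not use it. Each sequence is the 250 bases before a RefSeq transcript start (GRCm38.p6), written along the gene's strand with CG in capitals. Where a gene has several such starts, the furthest upstream is printed.
Gab1, chr8:80880520-80880769, minus strand: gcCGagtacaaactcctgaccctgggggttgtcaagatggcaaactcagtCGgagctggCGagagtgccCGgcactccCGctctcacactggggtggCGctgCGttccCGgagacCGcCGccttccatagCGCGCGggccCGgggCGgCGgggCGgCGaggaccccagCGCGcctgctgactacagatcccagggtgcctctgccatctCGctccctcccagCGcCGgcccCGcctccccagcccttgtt
Slc38a4, chr15:97055957-97056206, minus strand: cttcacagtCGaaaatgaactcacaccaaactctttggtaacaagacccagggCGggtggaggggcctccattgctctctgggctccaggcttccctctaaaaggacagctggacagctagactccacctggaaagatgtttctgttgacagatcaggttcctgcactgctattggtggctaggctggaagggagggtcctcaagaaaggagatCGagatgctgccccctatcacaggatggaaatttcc
Sfmbt2, chr2:10370201-10370450, plus strand: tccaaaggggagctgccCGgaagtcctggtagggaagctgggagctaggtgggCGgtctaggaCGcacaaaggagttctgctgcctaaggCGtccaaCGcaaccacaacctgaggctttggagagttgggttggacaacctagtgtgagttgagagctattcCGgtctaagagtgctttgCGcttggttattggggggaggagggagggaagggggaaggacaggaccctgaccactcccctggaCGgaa
Jade1 (the RefSeq symbol of Phf17), chr3:41555484-41555733, plus strand: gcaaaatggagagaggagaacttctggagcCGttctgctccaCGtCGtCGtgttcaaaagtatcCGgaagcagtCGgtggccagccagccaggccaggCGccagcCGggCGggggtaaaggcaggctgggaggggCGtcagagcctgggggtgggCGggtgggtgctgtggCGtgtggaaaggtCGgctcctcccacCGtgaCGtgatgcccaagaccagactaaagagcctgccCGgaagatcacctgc
The printed Gab1 promoter held 24 CG, more than 88.0% of the 32841 mouse promoters compared. The Jade1 promoter held 16 CG, more than 74.6% of them. The Sfmbt2 promoter held 8 CG, and the Slc38a4 promoter held 3, more than 29.0% of promoters. The promoters of the other RefSeq starts differed, with 25 CG at Gab1, 5 each at a pair of Slc38a4 starts, 15 at Sfmbt2, and 6, 35 and 18 at Jade1. The motif GGGCGG, searched on both strands and overlapping the CG counted above, occurred 2 times in the printed Gab1 and Jade1 promoters and 1 time in the other two. It was present in 32.7% of all promoters. CCAAT occurred 1 time each at Slc38a4 and Sfmbt2 against 33.9% of all promoters that hold it, and TATAAA, present in 12.4%, occurred in none of the 4 printed but 1 time in that of another Slc38a4 start. These matches are a description of the letters only.

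Gab1 was the member with the largest difference between mutant and control oocytes. It encodes a docking adaptor that receptor tyrosine kinases use to recruit the phosphatase SHP2 and phosphoinositide 3-kinase, and mouse embryos need it for placental growth. The locus (ENSMUSG00000031714, chr8:80764434-80880505, minus strand) spans the annotated gene. GKAO controls had 3, 3 and 1 reads, or 2.06, 1.57 and 0.586 RPM. The G9a cKO libraries had 49, 24 and 46 reads, or 20.5, 13.1 and 21.7 RPM. All 3 mutant libraries lay far above all 3 controls. Gab1 rose by 3.86 on the log2 scale (SE 0.49, limma adjusted p = 9.79e-12). With neither trend nor robust moderation the SE was 0.62 and the limma adjusted p was 0.0347. The mean of 18.4 ± 4.63 RPM (SD, n = 3) was at least 8.95-fold higher than the level of 3 reads per library, which no control of the series exceeded. Among 233 named loci called higher in G9a cKO, Gab1 ranked 2 by log2 fold change.

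In the double mutant Gab1 also rose. The GKAQ controls had 0, 4 and 6 reads, or 0, 1.67 and 2.96 RPM, and the cDKO libraries had 54 and 70 reads, or 30.7 and 41.5 RPM. Both mutant libraries lay above all 3 controls. Means were 36.1 ± 7.60 RPM (SD, n = 2) and 1.54 ± 1.48 RPM (SD, n = 3), a 23.4-fold ratio, with a log2 fold change of 4.67 (SE 0.55, limma adjusted p = 1.83e-14). It ranked 11 among the 961 named loci called higher in cDKO. With neither trend nor robust moderation the SE was 0.69 and the limma adjusted p was 0.00872. The change in cDKO exceeded that in G9a cKO by 0.80 on the log2 scale (SE 0.74, limma adjusted p = 0.442), which did not pass the test.

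Smoc1 rose in both mutants from a control level close to the detection limit. It encodes a secreted calcium-binding protein of basement membranes that modulates bone morphogenetic protein signalling. The locus (ENSMUSG00000021136, chr12:81026817-81186410, plus strand) had 0, 6 and 0 reads in GKAO controls and 14, 15 and 12 reads in G9a cKO. In RPM these were 0, 3.14 and 0 against 5.84, 8.19 and 5.65. The groups did not overlap, although the middle control stood above the other two. The means of 6.56 ± 1.42 and 1.05 ± 1.81 RPM (SD, n = 3 each) gave a 6.27-fold ratio, and the log2 fold change was 2.68 (SE 0.67, limma adjusted p = 0.0073). The call was lost without G9a cKO replicate 2 (adjusted p = 0.0917), GKAO control replicate 1 (0.0696) or GKAO control replicate 3 (0.108), and in 6 of 21 alternatives in all.

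In cDKO, Smoc1 had 10 and 4 reads, or 5.69 and 2.37 RPM, against 2, 0 and 2 reads, or 1.26, 0 and 0.986 RPM, in GKAQ controls. Both mutant libraries were above all controls, the lower of them by 2 reads. The mean of 4.03 ± 2.35 RPM (SD, n = 2) was at least 2.14-fold higher than the level of 3 reads per library, and the log2 fold change was 2.25 (SE 0.75, limma adjusted p = 0.0463). This call was close to the threshold and held in 6 of 21 alternatives. It was lost without cDKO replicate 1 (adjusted p = 0.595), cDKO replicate 2 (0.051), GKAQ control replicate 2 (0.291), GKAQ control replicate 3 (0.0628) or any of the G9a cKO libraries (0.0573 to 0.0594), which enter the shared estimate of the spread. The effects of the mutants on Smoc1 differed by -0.44 on the log2 scale (SE 1.01, limma adjusted p = 0.808).

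**Figure D1:**
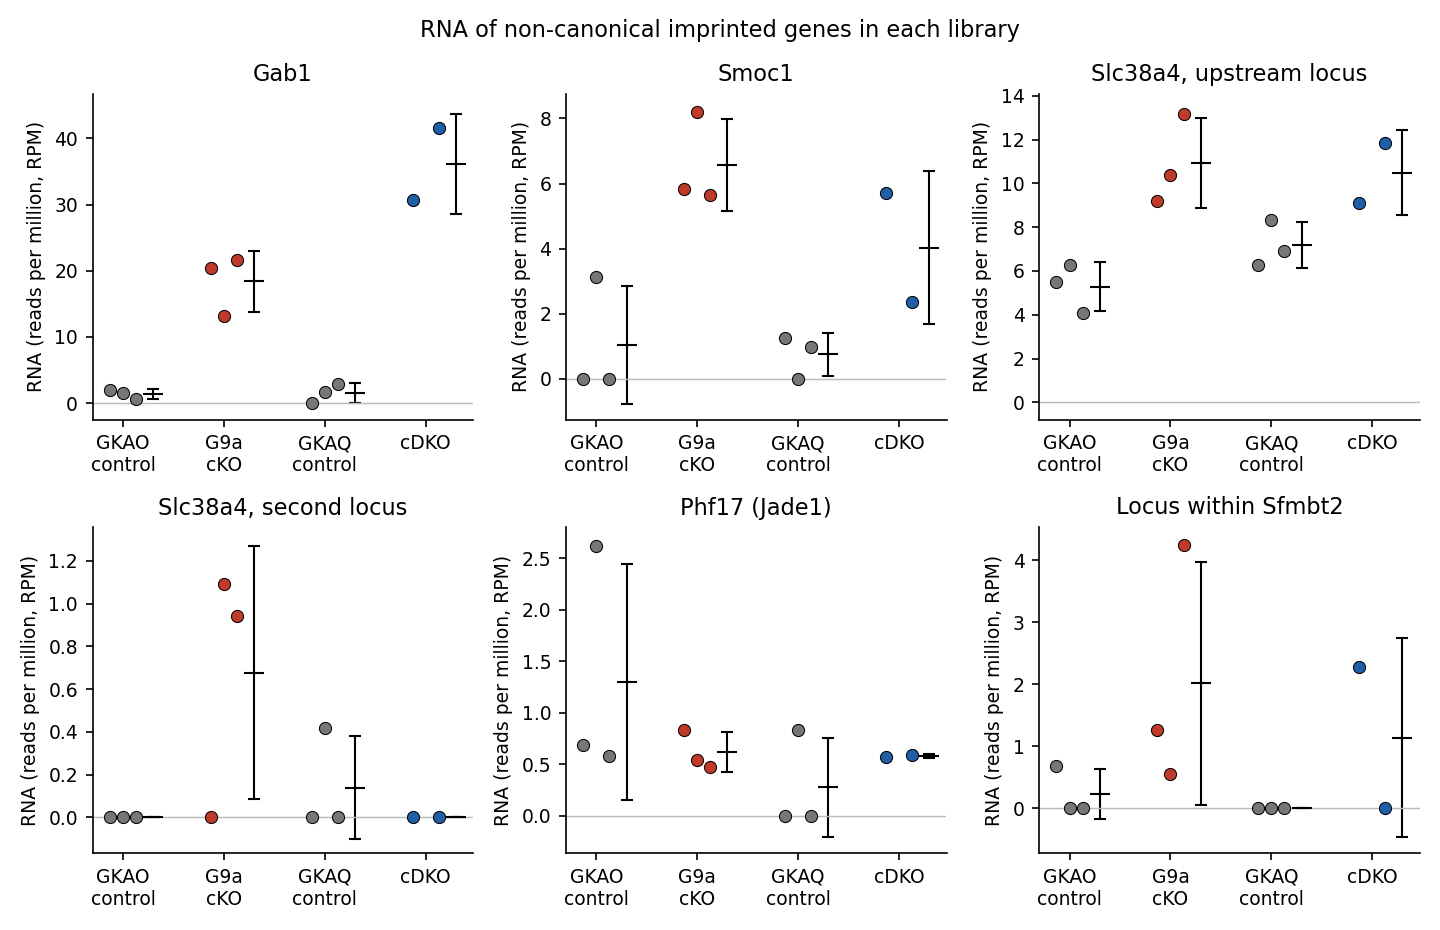
RNA level in RPM (vertical axis) of each locus in each of the 11 libraries, by group (horizontal axis); points are libraries and bars give the mean and SD. All G9a cKO and cDKO libraries lie above the controls of their own series for Gab1, Smoc1 and the upstream Slc38a4 locus, while Phf17 and the Sfmbt2 locus stay at 0 to 9 reads.

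The plot of RNA level by library shows the wide separation for Gab1, the control libraries at or near 0 for Smoc1, and the smaller separation at Slc38a4.

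Slc38a4 encodes a sodium-coupled transporter of neutral amino acids with known roles in placenta and liver. It had 2 loci on chromosome 15, minus strand (ENSMUSG00000022464). The locus with reads (chr15:97045062-97085945) begins 29989 bp upstream of the furthest RefSeq start of the gene, and 26.6% of its 40884 bp lie within the RefSeq gene, so it covers the start of the gene and sequence before it. The Slc38a4 promoter printed above lies inside this locus. GKAO controls had 8, 12 and 7 reads there, or 5.48, 6.28 and 4.10 RPM, and G9a cKO had 22, 19 and 28 reads, or 9.18, 10.4 and 13.2 RPM. The groups did not overlap, with means of 5.29 ± 1.10 and 10.9 ± 2.05 RPM (SD, n = 3 each) and a ratio of 2.06. The log2 difference of 1.05 (SE 0.41) did not pass the test (limma adjusted p = 0.222).

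GKAQ controls had 10, 20 and 14 reads at this locus, or 6.28, 8.33 and 6.90 RPM, and cDKO had 16 and 20 reads, or 9.11 and 11.9 RPM. The groups again did not overlap, with the lower mutant close to the highest control. The log2 difference was 0.54 (SE 0.46, limma adjusted p = 0.565), and the effects of the mutants differed by -0.51 (SE 0.61, adjusted p = 0.585). The control series differed from each other by 0.45 (SE 0.41, adjusted p = 0.48), GKAQ being the higher, which is of the size of the cDKO difference. The second locus (chr15:96994823-97020322), which covers the end of the gene, had 0 to 2 reads in every library, so no difference was detectable at this depth.

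The 2 chromatin genes were near the detection limit. Phf17, named JADE1 in RefSeq, is a PHD-finger scaffold of the HBO1 histone acetyltransferase complex. Its locus (ENSMUSG00000025764, chr3:41555734-41616862, plus strand) had 1, 5 and 1 reads in GKAO controls, 2, 1 and 1 in G9a cKO, 0, 2 and 0 in GKAQ controls, and 1 and 1 in cDKO. Mutants and controls overlapped, with limma adjusted p = 0.346 in G9a cKO and 0.972 in cDKO. SFMBT2 is a Polycomb group protein with MBT domains that trophoblast needs.

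The locus found by position in Sfmbt2 (chr2:10370510-10595253, plus strand) lies wholly within the RefSeq gene, while the table names it Gm13261, a gene on the other strand. It had 1, 0 and 0 reads in GKAO controls and 3, 1 and 9 in G9a cKO, and 0 in all 3 GKAQ controls against 4 and 0 in cDKO. A single G9a cKO library held 9 of the 18 reads, and limma adjusted p-values were 0.23 and 0.405. At 3 reads, a library's detection limit lay between 1.25 and 2.06 RPM, so differences below about that level at these loci were not detectable.

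By count, 2 of the 4 genes rose in G9a cKO, where 1.05% of all 38540 loci were called higher, or 2.39% of the 16918 loci with a mean of at least 1 RPM. The same 2 genes, Gab1 and Smoc1, rose in cDKO, where 4.32% of all loci and 8.48% of those with at least 1 RPM were called higher. Being called higher in both mutants was seen at 0.651% of all loci, and no gene of the 4 was called lower in either mutant, against 0.737% and 2.02% of loci. All libraries of each mutant lay above all controls of its own series for Gab1, Smoc1 and the upstream Slc38a4 locus, a pattern of 6.57% of loci in G9a cKO and 15.8% in cDKO. Over the 4 genes in the table the median log2 fold change was 1.87 (G9a cKO) and 1.40 (cDKO), beside -0.31 and 0.20 over all loci. These medians include loci at the read floor. For the 3 genes with a mean of at least 1 RPM the median was 2.68 and 2.25, beside 0.04 and 0.12 over all such loci.

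None of the 4 genes was called for the difference between the mutants' effects, where 1.08% of loci were called, nor between the control series, where 3.87% were. Among the 2444 loci called in cDKO, 68.1% were higher, but 53.1% were when libraries were centred on detected loci and 49.8% after quantile normalization. The median log2 fold change over all loci was -0.31 in G9a cKO and 0.20 in cDKO, and 0.01 and 0.05 over the 9091 loci of at least 10 RPM. The shifts of Gab1 and Smoc1 exceed these medians. Library titles carry a number whose meaning the labels do not give. Within the number shared by G9a cKO replicate 1 and GKAO control replicates 1 and 2, the mutant exceeded control on the log2 scale by 3.51 for Gab1, 2.07 for Smoc1 and 0.65 for Slc38a4. Within that of G9a cKO replicates 2 and 3 and GKAO control replicate 3 the values were 4.85, 3.69 and 1.51, and within that of cDKO replicate 2 and GKAQ control replicate 2 they were 4.64, 2.66 and 0.51. Each holds 1 or 2 libraries a group, and all of these values have the sign of the pooled ones.

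**Figure D2:**
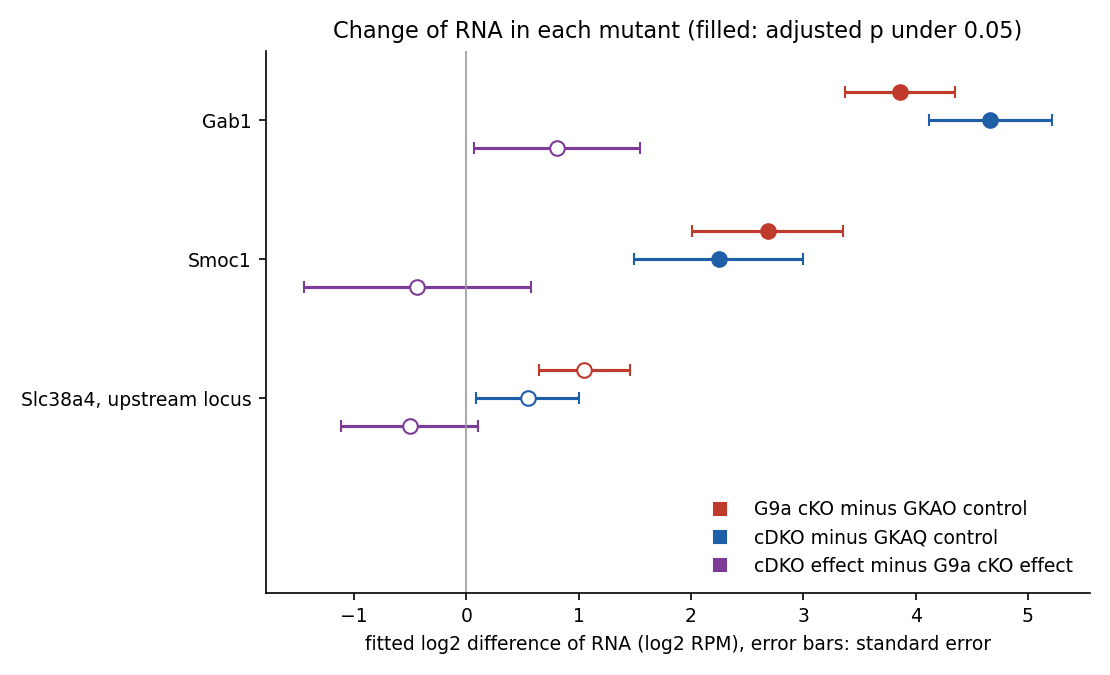
Log2 fold change of RNA (horizontal axis) with SE bars for Gab1, Smoc1 and the upstream Slc38a4 locus in G9a cKO against GKAO controls, in cDKO against GKAQ controls, and for the difference between those effects; filled symbols have a limma adjusted p under 0.05. Gab1 stands at 3.86 and 4.67 and Smoc1 at 2.68 and 2.25, all filled, while Slc38a4 at 1.05 and 0.54 and all 3 differences are open.

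The plot of log2 fold changes shows that the error bars of the differences between mutants cross 0 for Smoc1 and Slc38a4 and nearly reach it for Gab1.

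The listed genes that work with the members, and those of their families, were not called. The background was 1.05% of all loci called higher and 0.737% lower in G9a cKO, and 4.32% and 2.02% in cDKO. Counts of 0 among 7 or 8 genes were thus near the background. None of 8 Gab1 partners in the table was called in either mutant. Ptpn11, which encodes SHP2, had mean levels of 486 RPM in GKAO controls, 553 in G9a cKO, 366 in GKAQ controls and 356 in cDKO. None of 7 genes of the Smoc1 family was called, and Smoc2, its closest relative, had 84.7, 85.6, 88.6 and 118 RPM in the same order (limma adjusted p = 0.915 and 0.134). None of 8 Slc38 transporters was called, Slc38a7 having 32.0, 37.9, 22.3 and 27.9 RPM. None of 8 Sfmbt2 partners was called, Sfmbt1 having 342, 328, 392 and 340 RPM, nor were any of 7 Phf17 partners, among which Kat7, the acetyltransferase HBO1, had 131, 136, 148 and 139 RPM.

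Of 18 further genes known to be imprinted through maternal H3K27me3, 13 were in the table. In G9a cKO 0 of 13 were called higher and 1 lower, and in cDKO 1 was called higher and 0 lower. Over all loci, 1.05% were called higher and 0.737% lower in G9a cKO, and 4.32% and 2.02% in cDKO. Gramd1b, a sterol transfer protein gene, had 1 to 3 reads in GKAQ controls and 7 to 9 in cDKO, and rose by 2.33 on the log2 scale (SE 0.74, limma adjusted p = 0.0313), at least 2.47-fold over the level of 3 reads. In G9a cKO it differed by 0.63 (adjusted p = 0.507). The zinc-finger gene Tshz2, a locus that overlaps a locus on the other strand, fell by 0.82 in G9a cKO (SE 0.20, adjusted p = 0.00387), from a mean of 56.6 to 32.6 RPM. Its call was lost without G9a cKO replicate 2 (adjusted p = 0.113). The call of Gramd1b was lost without either cDKO library or GKAQ control replicate 3.

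Over the 13 genes the median log2 fold change was -0.37 (G9a cKO) and 0.73 (cDKO), beside -0.31 and 0.20 over all loci. These medians include loci at the read floor. For the 7 genes with a mean of at least 1 RPM the median was -0.63 and 0.95, beside 0.04 and 0.12 over all such loci. Sall3 had 0 to 1 reads in GKAO controls and 5 to 6 in G9a cKO without passing the test (limma adjusted p = 0.0862). Bbx, from a mean of 8.81 to 13.1 RPM, did not pass it either (adjusted p = 0.242).

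The genes that write, read or erase H3K27 methylation were expressed, 17 of 19 being in the table with a mean of at least 1 RPM each. Ezh2, the H3K27 methyltransferase, had mean levels of 821 RPM in GKAO controls, 873 in G9a cKO, 858 in GKAQ controls and 842 in cDKO (limma adjusted p = 0.309 and 0.777). In G9a cKO 1 gene was called higher and 0 lower. It was Jarid2, a cofactor of Polycomb repressive complex 2, from a mean of 217 to 319 RPM (log2 0.54, SE 0.10, adjusted p = 5.74e-05). In cDKO 0 were called higher and 4 lower, where 2.02% of all loci were called lower. Between the control series 5 of the 17 were called, 4 of them higher in GKAQ, where 3.87% of all loci were called. The demethylase gene Kdm6a fell by 0.52 (SE 0.14, adjusted p = 0.00781), from 147 to 103 RPM. Rybp, a subunit gene of Polycomb repressive complex 1, fell by 0.41 (SE 0.13, adjusted p = 0.0339), from 221 RPM in GKAQ controls to 169, with 145 in GKAO controls.

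The other two were the histone-binding subunit gene Rbbp7, from 1420 RPM in GKAQ controls to 1152, with 994 in GKAO controls (log2 -0.31, SE 0.06, limma adjusted p = 6.59e-05), and Phf19, which encodes an accessory protein of Polycomb repressive complex 2, from 10.4 to 3.75 RPM (log2 -1.55, SE 0.46, adjusted p = 0.0168). The cDKO levels of Rbbp7 and Rybp thus lay between the control series, and with the control series pooled their log2 differences were -0.048 (adjusted p = 0.899) and -0.10 (adjusted p = 0.874). With the title number as a block the Rybp difference was -0.092 (adjusted p = 0.755). The list's median log2 fold change was -0.011 (G9a cKO) and -0.14 (cDKO), beside 0.04 and 0.12 over loci of at least 1 RPM. Leaving out cDKO replicate 1 ended the calls of Rbbp7, Rybp and Kdm6a, leaving out cDKO replicate 2 that of Phf19. Rybp was also lost without any 1 of the GKAQ controls and Phf19 without GKAQ control replicate 2 or 3.

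Over the 11 libraries, the genes whose log2 levels followed a member most closely, among 6939 to 6940 named candidates, are given as a description. For Gab1 these were Ephb1, an ephrin receptor gene (Pearson r = 0.984), Stat3, a cytokine-responsive transcription factor gene (0.967), and Smpd1, a sphingomyelinase gene (0.964). Ephb1 had means of 1.46, 16.2, 1.86 and 46.1 RPM in GKAO controls, G9a cKO, GKAQ controls and cDKO. For Slc38a4 they were Gm904 (0.927), Fpgt (0.925) and Prr23a (0.910). For Smoc1 they were the splicing factor gene Srsf6 (0.912), Gtf2a1 (0.904) and Bahd1 (0.898). For Phf17, at 0 to 5 reads, r did not exceed 0.786. The points share libraries, depth and the group means, so a gene that differs between the same groups has a high r.

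Within 500 kb of the 5 loci lay 59 other loci. Of these, 0 were called higher and 1 lower in G9a cKO, and 3 were called higher and 1 lower in cDKO. Over all loci, 1.05% were called higher and 0.737% lower in G9a cKO and 4.32% and 2.02% in cDKO, so the neighbours' counts were near the background. Near Gab1, 100 kb away, the ubiquitin protease gene Usp38 rose in cDKO by 0.40 (SE 0.13, limma adjusted p = 0.0268), a smaller change than that of Gab1. The Usp38 call was lost in 8 of 21 alternatives, among them those without cDKO replicate 2, GKAQ control replicate 1 or GKAQ control replicate 3. Near Sfmbt2, Itih5 rose in cDKO by 3.12 on the log2 scale (SE 0.81, adjusted p = 0.00383). Its levels were 0 to 0.628 RPM in the GKAQ controls, at most the level of 1 read, and 2.96 to 5.69 RPM in cDKO. The size of this change thus rests on controls at the read floor. The call was lost in 2 of 21 alternatives, among them the one without cDKO replicate 1. Near Smoc1, the Mediator subunit gene Med6 fell by 0.54 in G9a cKO (SE 0.11, adjusted p = 0.000624), from a mean of 267 to 184 RPM, opposite in direction to Smoc1. GKAQ controls had 134 RPM of Med6, and with the control series pooled its difference was -0.041 (adjusted p = 0.930), 1 of 3 alternatives that ended the call.

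H3K9me2 is given as the mean RPM per 10 kb window over all windows that overlap a locus. Such a value is a share of a library's reads, so it shows how the reads were spread and not how much of the mark there was. It was not corrected by the libraries without immunoprecipitation (input) or with a control antibody (IgG), so background was not separated from the mark. Gab1 had 3.69 and 4.59 RPM per window in controls, 2.49 and 2.84 in the G9a cKO libraries, and 3.79 and 2.98 in the cDKO libraries. Both G9a cKO libraries were below both controls, while 1 cDKO library was between the controls. The log2 difference was -0.61 in G9a cKO (SE 0.23, limma adjusted p = 0.169) and -0.28 in cDKO (adjusted p = 0.518).

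Smoc1 had 4.56 and 4.93 RPM per window in controls, 2.38 and 3.92 in the G9a cKO libraries, and 3.65 and 3.50 in the cDKO libraries. All 4 mutant libraries were below both controls, with log2 differences of -0.62 (SE 0.26, limma adjusted p = 0.215) and -0.40 (adjusted p = 0.426). Phf17 had 4.56 and 4.94 in controls, 2.31 and 3.09 in the G9a cKO libraries, and 3.65 and 3.80 in the cDKO libraries. Again all 4 mutant libraries were below both controls. Its log2 difference of -0.79 in G9a cKO (SE 0.21, adjusted p = 0.0898) was the largest of the loci described in that mutant, and in cDKO it was -0.33 (adjusted p = 0.403).

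The upstream Slc38a4 locus had 4.71 and 4.61 RPM per window in controls, 3.98 and 4.87 in the G9a cKO libraries, and 5.11 and 5.31 in the cDKO libraries. Here the G9a cKO libraries lay on either side of the controls and both cDKO libraries lay above them, with log2 differences of -0.05 and 0.18 (limma adjusted p = 0.898 and 0.588). The second Slc38a4 locus had 4.08 and 4.46 in controls, 4.04 and 3.16 in the G9a cKO libraries, and 2.61 and 4.92 in the cDKO libraries, the higher G9a cKO library being level with the lower control and the cDKO libraries on either side of the controls. The Sfmbt2 locus had 3.48 and 3.59 in controls, 2.62 and 2.86 in the G9a cKO libraries, and 3.05 and 3.26 in the cDKO libraries, with log2 differences of -0.35 and -0.16 (adjusted p = 0.308 and 0.674). All 4 of its mutant libraries were below both controls.

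None of these loci was called for H3K9me2 in either mutant. The percentage called among 14967 named loci was also 0 in both, with 3736 and 3103 loci at an unadjusted p under 0.05. In G9a cKO both mutant libraries were below both controls at Gab1, Smoc1, Phf17 and the Sfmbt2 locus, a pattern of 22.9% of loci, and in cDKO at Smoc1, Phf17 and the Sfmbt2 locus, against 15.3%. The median log2 difference over all loci was 0.09 in G9a cKO and 0.20 in cDKO, and 43.2% and 32.4% of loci were below 0. Phf17 was at percentile 4.62 of all loci in G9a cKO, Smoc1 at 8.05, Gab1 at 8.45, the Sfmbt2 locus at 19.0, the second Slc38a4 locus at 28.2 and the upstream Slc38a4 locus at 39.5. In cDKO the percentiles were, in the same order, 11.3, 8.56, 13.6, 20.8, 17.6 and 48.5. Both comparisons use the same 2 control libraries, which were sequenced more deeply than any mutant library.

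**Figure D3:**
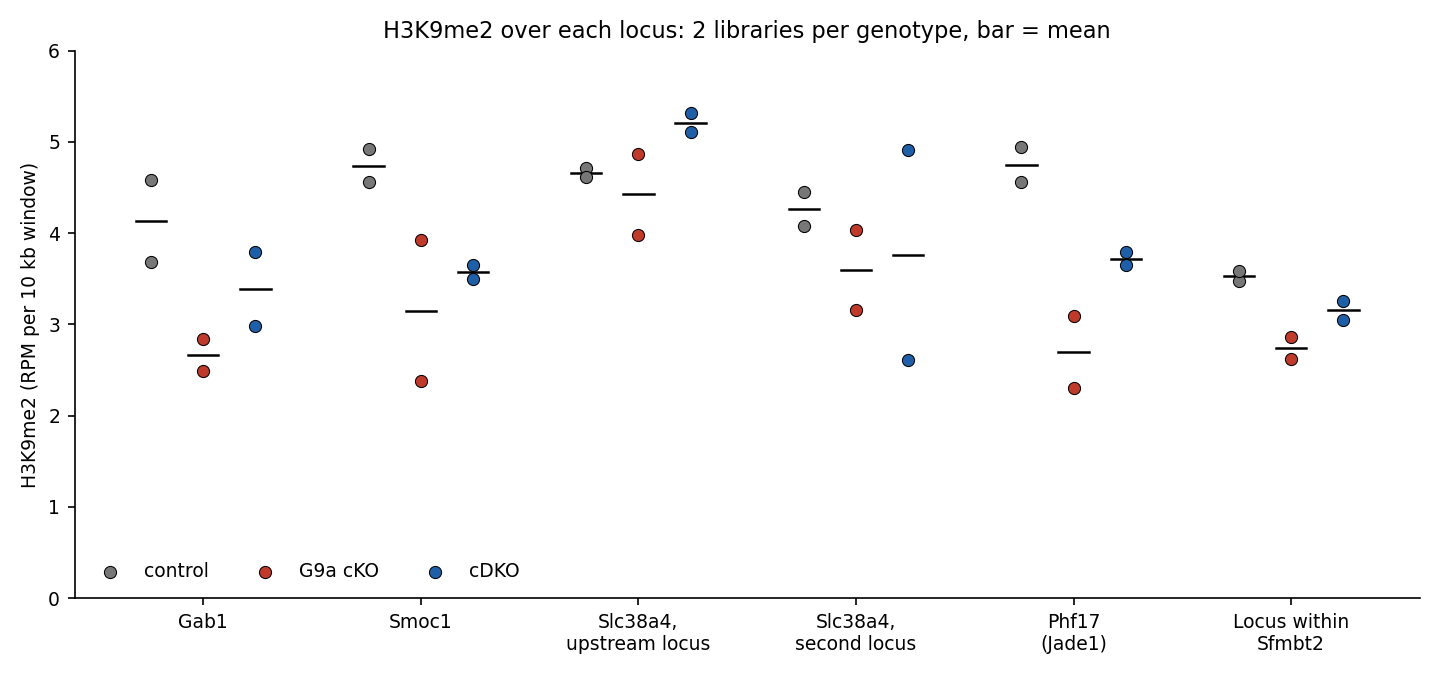
H3K9me2 in RPM per 10 kb window (vertical axis) of each locus in the 2 control, 2 G9a cKO and 2 cDKO libraries (horizontal axis); points are libraries and bars the group means. The G9a cKO points lie below both controls at Gab1, Smoc1, Phf17 and the Sfmbt2 locus, and on either side of them at the upstream Slc38a4 locus.

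The plot of H3K9me2 by library shows the loci themselves. In the 20 windows that flank each locus, 100 kb on each side, mean H3K9me2 around Phf17 was 4.31 RPM in controls, 2.69 in G9a cKO and 3.59 in cDKO. Around Smoc1 it was 4.87, 3.37 and 3.38 RPM. Around the Sfmbt2 locus it was 4.16, 3.09 and 3.48 RPM, a log2 difference of -0.43 and -0.26. These flanks held lower values in both mutants, as the loci did. At Sfmbt2 the flank differed more than the locus in both mutants. At Smoc1 it did so in cDKO, with a log2 difference of -0.53 in the flank and -0.40 over the locus. Around Gab1 it was 4.11, 3.70 and 3.93 RPM, a smaller difference than at Gab1 itself. Around the upstream Slc38a4 locus it was 4.18, 4.30 and 3.97 RPM.

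Single windows were sparse in the mutants. Of the 70 windows that overlap the loci, 55 were lower in G9a cKO than in control and 15 higher. The share of all windows that were lower in a mutant is not given here, so such counts cannot be set against a background. None was called, where 1.85% of 255057 windows were, and the smallest limma adjusted p was 0.0874. At an unadjusted p under 0.05 there were 12 windows, all lower, against 19.2% of all windows in either direction. In cDKO 49 were lower and 21 higher, with 0 called as over all windows, and 5 at an unadjusted p under 0.05 against 9%. Without G9a cKO H3K9me2 replicate 1 that group holds a single library, so no count of called windows is given for that fit.

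At Phf17 the window that holds its start (chr3:41550001-41560000) had 31 and 94 control reads, or 4.40 and 4.91 RPM, 3 and 1 reads in the G9a cKO libraries, or 1.62 and 0.902 RPM, and 8 and 10 reads in cDKO, or 4.64 and 5.31 RPM. Both G9a cKO libraries were low and the cDKO libraries were near the controls (log2 -1.95 in G9a cKO, limma adjusted p = 0.0904). The window at the start of the upstream Slc38a4 locus (chr15:97080001-97090000) had 31 and 94 control reads, 3 and 1 reads in the G9a cKO libraries and 8 and 13 in the cDKO libraries. It too was low in G9a cKO (log2 -1.95, adjusted p = 0.0874), while the log2 difference over the whole locus was -0.05.

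At the Gab1 start (chr8:80880001-80890000) the control libraries had 34 and 97 reads, or 4.82 and 5.07 RPM, the G9a cKO libraries 12 and 5 reads, or 6.46 and 4.51 RPM, and the cDKO libraries 9 and 6 reads, or 5.22 and 3.19 RPM. Here the mutant libraries lay on either side of the controls. Within Sfmbt2, a pair of adjoining windows (chr2:10480001-10500000) had 0 to 12 reads in every library, mutant and control.

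**Figure D4:**
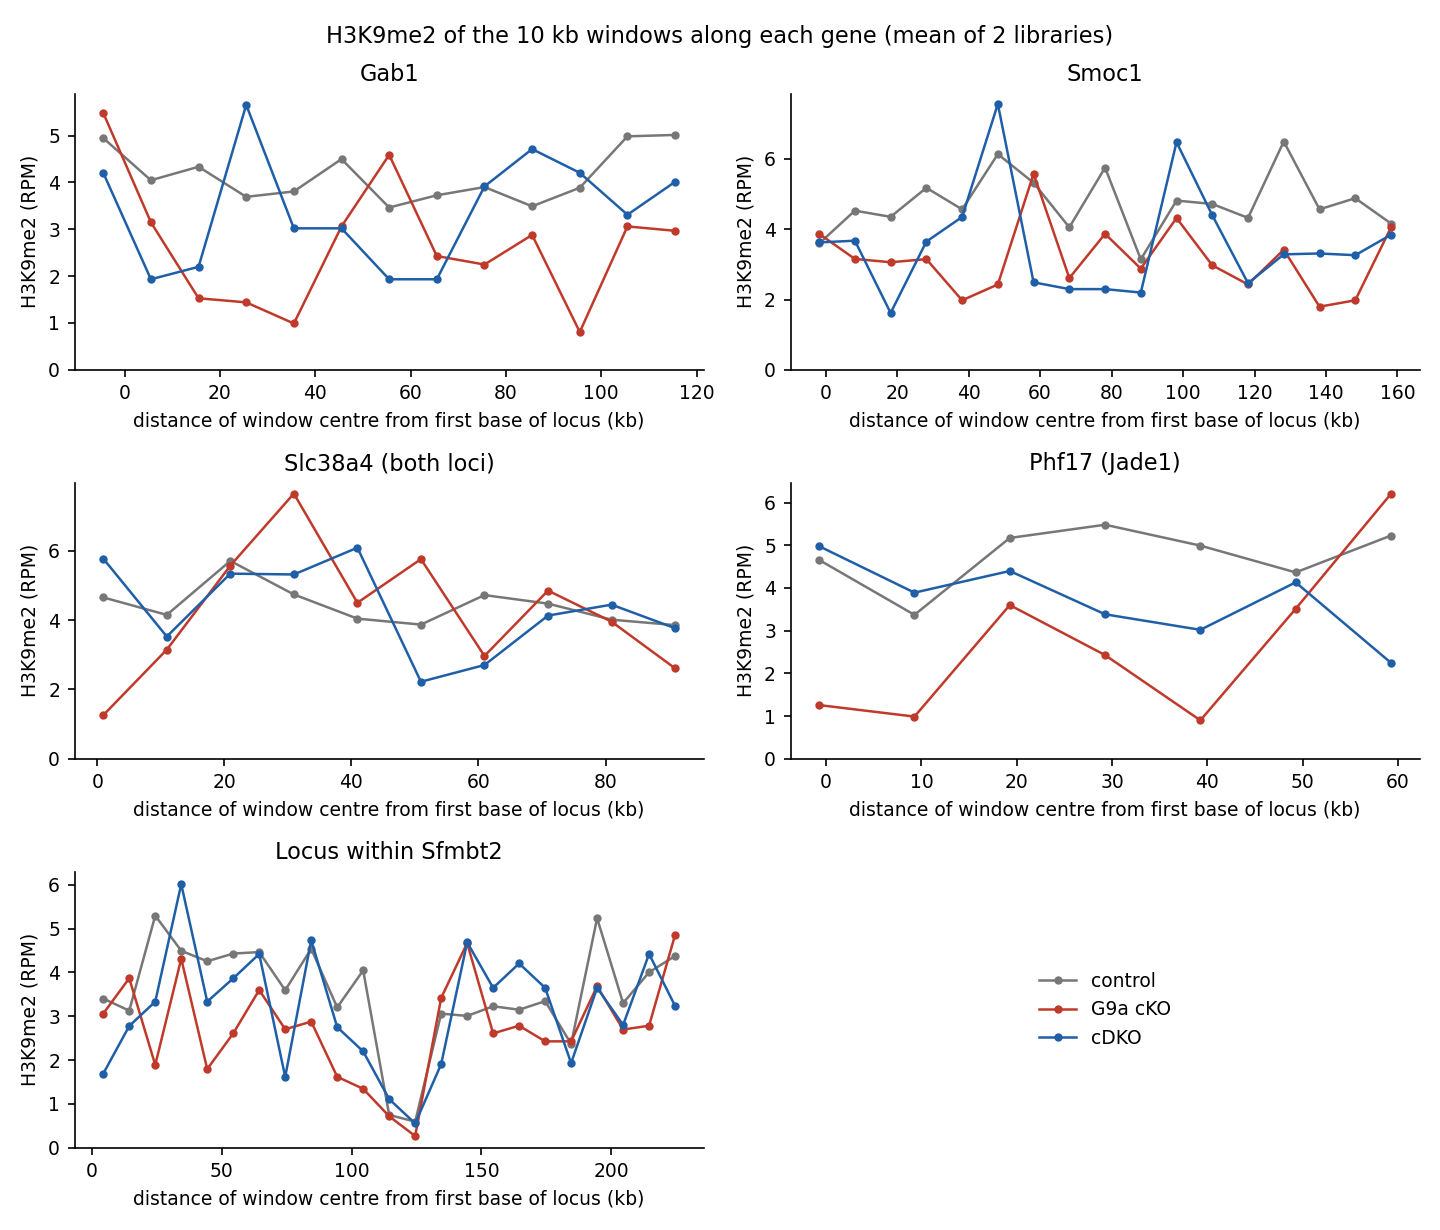
H3K9me2 in RPM (vertical axis) of each 10 kb window, by distance of its centre from the first base of the locus in kb (horizontal axis); each point is the mean of 2 libraries, with a line for controls, G9a cKO and cDKO. The G9a cKO line lies below control at most windows of Gab1, Smoc1 and Phf17, and all lines drop together at a pair of windows within Sfmbt2.

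The plot of windows along the loci shows the G9a cKO values below control along most of Gab1, Smoc1 and Phf17. By log2 difference, 11 of 13, 15 of 17 and 6 of 7 windows were lower there, and 7 of 10 at Slc38a4 and 16 of 23 at Sfmbt2. The share of all windows that were lower is not given here, so it cannot be said whether these loci differ from other windows.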

How the data were processed

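RNA was measured in 11 libraries and H3K9me2 in 6, out of 40 samples. The 15 bisulphite libraries, the input libraries and the IgG libraries were not used here, nor were 4 value columns that match no sample. The authors deposited log2 RPM, per the file headers, for 38540 RNA loci and 272158 windows of 10 kb. A feature without reads holds the log2 of 0.9 read, and 100% of values came out as whole reads within 0.01 read or 1 part in 100000. The submitters' processing notes name Trim Galore, HISAT2 2.1.0, Bowtie2, Bismark 0.19.0 and GRCm38 without roles. Strand use in counting was not given in the sources used here, and 12803 loci overlap one on the other strand, so reads of overlapping genes cannot be told apart. Such loci include those of Tshz2, Bbx, Jarid2, Rbbp7, Ezh2, Zp2, Gata4, Usp38, Itih5 and Med6, and the upstream Slc38a4 locus.

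Log2 values were tested with limma 3.58.1 in R 4.3.3, two-sided, with trend and robust moderation and a mean per group over all libraries of an assay. Benjamini-Hochberg adjustment covered all loci, 255057 windows with a read, or 14967 named loci for H3K9me2 per gene, and an adjusted p under 0.05 was called. H3K9me2 per gene was the log2 of reads plus 0.9, per window and scaled to the library's total. Tables were made with Python 3.11.15 and pandas 2.3.3 and plots with matplotlib 3.10.9. The models were tested on simulated data. Replicates were numbered in accession order. A 0 allows up to 3 reads, which covers counting error only. Sequences came from RefSeq (GRCm38.p6), matched by symbol.

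The members and lists were chosen with earlier results of these data known. Named genes were the members, list genes called in either mutant and up to 4 others of high level per list, the 3 named genes closest to each member in pattern with a mean of at least 10 RPM, and called named neighbours within 500 kb. The alternatives were each library left out, other control sets, scalings, filters, offsets, weights and moderation, and the title number as a block.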

Additional observations from a re-analysis of the deposited data

Results flagged for a closer look

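The Polycomb cofactor gene Jarid2, a locus that overlaps a locus on the other strand, differed between the mutants' effects. It rose in G9a cKO by 0.54 on the log2 scale (SE 0.10, limma adjusted p = 5.74e-05) and differed by -0.20 from its controls in cDKO (SE 0.12, adjusted p = 0.445). The difference of these effects was -0.74 (SE 0.155, adjusted p = 0.000753). Mean levels were 217 RPM in GKAO controls and 319 RPM in G9a cKO. The granulosa marker gene Inha also differed, in the opposite direction, with -0.81 in G9a cKO (SE 0.53, adjusted p = 0.271), 2.26 in cDKO (SE 0.59, adjusted p = 0.00472) and a difference of the effects of 3.07 (SE 0.80, adjusted p = 0.0182). Both were singled out because the test of the difference itself passed the threshold. None of the 4 imprinted genes met that criterion.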

How the results depend on the processing

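Gab1 was called in cDKO under all 21 alternatives and in G9a cKO under 20, the exception being log2(RPM + 1) with an adjusted p of 0.0758. The number of the 4 genes called in G9a cKO was 2, ranged from 1 to 2 when a library was left out, and was 0 with log2(RPM + 1), 1 with precision weights on recovered reads and 1 with neither trend nor robust moderation. The number called in cDKO was 2, ranged from 1 to 2 when a library was left out, and was 1 with only the compared groups, centring, quantile normalization, loci of at least 1 RPM, log2(RPM + 1), precision weights or neither trend nor robust moderation. The gene lost was Smoc1 in each case, except that both were lost in the 0. Deviations from the group means correlated at 0.0004 to 0.113 between libraries with the same title number. Such means come from few libraries and pairs with different numbers were not compared, so this cannot show whether the numbers pair libraries. With the title number as a replicate block, 2 genes were called in G9a cKO and 1 in cDKO, and the control series could not be compared.

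Over all loci, calls in G9a cKO were 689, and 34 with log2(RPM + 1), 179 without trend and robust moderation, 379 without G9a cKO replicate 2, 434 with weights and 1197 with pooled controls. In cDKO they were 2444, and 1562 without cDKO replicate 1, 1158 with log2(RPM + 1), 1154 without trend and robust moderation and 972 with the replicate block. Leaving out GKAQ control replicate 1 gave 14705 calls for the difference between mutants, against 417. None was one of the 4 genes, and the cause was not tested.

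Member windows called in G9a cKO H3K9me2 were 0, ranged from 0 to 5 when a library was left out, and were 4 when windows without reads were kept. Taking only the window of the locus start turned H3K9me2 to 0.27 (Gab1) and 0.31 (Smoc1) in G9a cKO, and to 0.20 (Smoc1) and 0.21 (Phf17) in cDKO. Slc38a4 H3K9me2 in G9a cKO ranged from -0.20 to 0.11 when a library was left out, turning without G9a cKO H3K9me2 replicate 1, and was 0.081 when centred and 0.22 with windows wholly inside. The Smoc1 difference between mutants ranged from -1.26 to 0.20 when a library was left out, turning without cDKO replicate 2 or GKAO control replicate 3 (0.030). None of these was called, and the cause was not tested. At Phf17 and the Sfmbt2 locus no RNA fold is given, since reads were at the floor. Their adjusted p stayed above 0.05 in each of 19 alternatives, and 2 alternatives that drop low loci gave no value. The sign of the uncalled differences of Gab1 and Smoc1 between control series varied with the setting. The pooled-control fits had no difference between mutants.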
